A study of Mus musculus with 42 samples.

Results

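The NODAL pathway genes described here are 10 genes of the 56953 in the count table, namely the ligands *Nodal* and *Gdf1*, the co-receptor *Cfc1*, the receptor *Acvr2b*, the convertase *Furin*, the transcription factor *Foxh1*, the co-repressor *Skil* and the secreted inhibitors *Lefty1*, *Lefty2* and *Ism1*. They were listed by name, and each was found in the table by its Ensembl identifier. Their levels and their right over left ratios were described by genotype and direction of heart looping, to ask on which side the pathway was read out once the node had no flow.

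RNA was sequenced from the heart field of 21 mouse embryos at E8.5i, when the direction of looping can be told. Each sample is the left or the right part of the heart progenitor region, freed of the heart tube and reaching down to the second somite, so that 21 embryos gave 42 libraries of poly-A RNA. The 5 wild types (*Ccdc40* +/+, 4 males and 1 female) all had rightward looping. All 16 mutants were homozygous for the lnks allele (*Ccdc40* lnks/lnks), a nonsense allele of a gene required for ciliary motility, and 11 of them had rightward looping (rightward mutants, 6 males and 5 females) and 5 inverted looping (inverted mutants, 3 males and 2 females). Every replicate was a separate embryo. The labels do not mark litters, and no litter effect was modelled. Looping is the only phenotype that the labels give, so that the rightward mutants were not divided further and may hold embryos of different organ arrangements.

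NODAL is a secreted signal of the TGFβ family that is produced in the left lateral plate mesoderm downstream of the node, the embryonic organizer whose cilia drive a leftward flow. The precursor is cleaved by convertases such as FURIN, it can pair with GDF1, and it signals through type I and type II receptors, ACVR2B among them, with the EGF-CFC co-receptor CFC1. Activated SMAD2/3 join FOXH1 on DNA and switch on *Nodal* itself and its inhibitors *Lefty1* (midline) and *Lefty2* (left mesoderm), while SKIL restrains SMAD-dependent transcription and ISM1 antagonises NODAL outside the cell.

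Libraries held 36073684 to 62970327 counts (median 43458644), and 12119 genes were at 0 in all of them. The mutated gene *Ccdc40* lay between 15.2 and 26.5 CPM in the 10 wild type libraries and between 8.83 and 14.8 CPM in the 32 mutant libraries, with no overlap. CPM values are counts scaled by the effective library size. Of 10 genes that mark the heart field, all had counts in every library, with *Isl1* between 51.8 and 139 CPM, and their summed level was 458 CPM or more in all libraries but 2_2 right (243 CPM). In 2_2 right, *Tbx5* (0.352 CPM), *Gata4* (2.51 CPM) and *Wnt2* (3.02 CPM) were far below their medians of 65.5, 121 and 186 CPM over all libraries, and in 2_2 left they were the next lowest (5.78, 18.1 and 27.7 CPM). Both libraries of the rightward mutants 2_2 and 15_5 stood apart from the rest, with a mean Spearman correlation with the other libraries of 0.574 (2_2 right), 0.660 (15_5 right), 0.679 (2_2 left) and 0.679 (15_5 left), although 10_1 right, a wild type, was close to them at 0.683. The edgeR results of *Lefty2* that use 2_2 and 15_5 are given with and without them.

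Compared per length of exon, the members differed widely in level. *Foxh1* was the most abundant, with a median level of 19.5 CPM per kb of exon over 42 libraries. It was followed by *Skil* (6.48 CPM per kb), *Cfc1* (3.23), *Acvr2b* (2.82), *Furin* (2.18) and *Ism1* (0.932). The NODAL targets and the ligand came last, with median levels of 0.371 CPM per kb for *Lefty2*, 0.122 for *Lefty1* and 0.0381 for *Nodal*. *Lefty2* was the most variable of them and reached 9.59 CPM per kb in 1 library. The order of neighbours held in 42 of 42 libraries for *Foxh1* over *Skil*, but in 29 of 42 for *Cfc1* over *Acvr2b* and in 32 of 42 for *Ism1* over *Lefty2*, and the ranges of all neighbours overlapped. *Gdf1* had a count of 0 in all 42 libraries, where 3 counts would be 0.0468 to 0.0838 CPM. All of its 2836 exonic bases are shared with *Cers1* or *Upf1*, so that reads of *Gdf1* could not be assigned to it. *Cers1*, which is transcribed with *Gdf1*, had 28 to 123 counts per library, and the level of *Gdf1* was not measurable here.

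**Figure D1:**
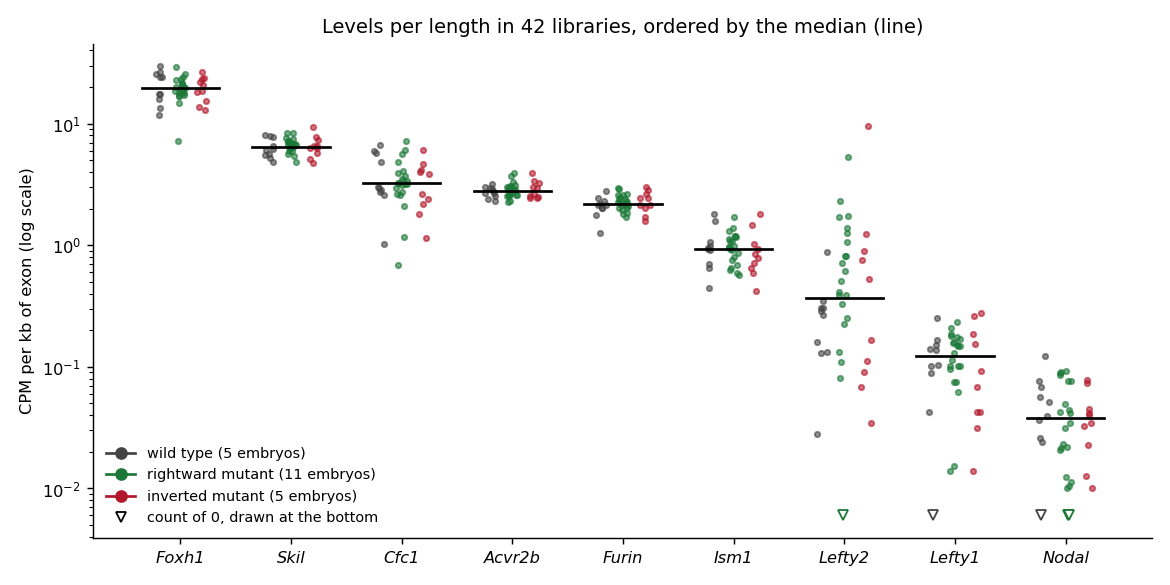
Level of each member in every library, in CPM per kb of exon on a log scale. Points are libraries coloured by group, lines are medians over 42 libraries, and open triangles mark a count of 0. *Foxh1* is highest with a median of 19.5, *Nodal* is lowest with 0.0381, and *Lefty2* is the most widely spread.

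Other members share part of their exons with neighbours on the opposite strand. The library kit does not mark strand, so that reads of these bases could not be told apart. The shared part was 755 of 1876 exonic bases for *Foxh1* (with *Kifc2* and *Ppp1r16a*), 289 of 1061 for *Cfc1* (with *Prss40*), 535 of 1764 for *Lefty1*, 611 of 2913 for *Lefty2*, 1471 of 11188 for *Acvr2b* and 118 of 10263 for *Furin*. *Nodal*, *Skil* and *Ism1* shared none. *Lefty1* and *Lefty2* are paralogs that lie next to each other on chromosome 1, and they have 97 windows of 100 bases in common, out of 1954 for *Lefty1* and 3102 for *Lefty2*, so that some reads could belong to either. Levels in a bulk sample do not tell fewer expressing cells from less RNA per cell.

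Paired FOXH1 motifs are shown here because *Lefty2*, a known target of FOXH1, had the largest asymmetry of the members described below. The motif AATCCACA (TGTGGATT on the other strand) was searched on both strands within 20000 bases of the gene start in GRCm39. It was the only motif searched. Of 21651 protein-coding genes, 81.32% had at least 1 site, but 2 sites within 100 bases were found in 247 genes (1.141%). Among the 10 members, *Lefty1* and *Lefty2* had such a pair. These genes are neighbouring paralogs, so that their pairs do not count as independent finds. *Nodal* had 2 single sites, *Foxh1* 4, *Ism1* 2, *Acvr2b* 2, *Cfc1* 1 and *Furin* 1, and none was found for *Skil* and *Gdf1*. A match describes the sequence and is no evidence of binding. In the following stretches of the GRCm39 assembly, written 5′ to 3′ on the plus strand, capitals mark the motif. The *Lefty2* pair lies between genes at chr1:180716448-180716558, with sites at -4177 and -4094 from the gene start.
Lefty2: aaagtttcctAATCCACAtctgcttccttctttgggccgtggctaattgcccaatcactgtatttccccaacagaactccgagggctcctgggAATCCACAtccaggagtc
The *Lefty1* pair lies in an intron of the antisense gene *Gm39715* at chr1:180752369-180752459, with sites at -10208 and -10145.
Lefty1: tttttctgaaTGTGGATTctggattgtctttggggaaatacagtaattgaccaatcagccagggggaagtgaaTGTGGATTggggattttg
Both *Nodal* sites lie in an intron of *Nodal* and of the antisense gene *Gm67993*, at chr10:61255068-61255095 and chr10:61255862-61255889.
Nodal, first site: acccggacgcAATCCACAtcttctaatc
Nodal, second site: attcttgtcaAATCCACAcggtgggggc

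*Nodal* itself (chr10:61253587-61261117, 2191 exonic bases) was barely detected, with 0 to 12 counts per library and 178 in all. In the 5 wild types, it had 6, 5, 2, 3 and 12 counts on the left and 0, 4, 5, 6 and 9 on the right in embryos 10_1, 17_7, 22_4, 7_1 and 8_1. Neither side was favoured, as 3 embryos were higher on the left and 2 on the right. In the 11 rightward mutants, counts ranged from 3 to 9 on the left (median 7) and from 0 to 4 on the right (median 1). All 11 rightward mutants were higher on the left in CPM, although the ranges of both sides overlapped. The 5 inverted mutants 10_3, 18_2, 2_7, 32_2 and 4_6 had 1, 3, 5, 2 and 7 counts on the left and 4, 3, 11, 4 and 1 on the right. Their sides overlapped and 3 of 5 embryos were higher on the right.

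Summed over embryos, 16 of the 85 *Nodal* counts of the rightward mutants were from the right, or 18.8% (95% Clopper-Pearson interval 11.2 to 28.8%), where the right libraries made up 48.4% of the library size. The right share was 46.2% (32.2 to 60.5%) in the wild types and 56.1% (39.7 to 71.5%) in the inverted mutants. These intervals cover counting error only. The mean log2 ratio, right over left with a prior count of 2, was -1.22 ± 0.65 in the rightward mutants (SD, n = 11, exact sign-flip test, two-sided p = 0.000977, the smallest that 11 embryos allow). It was -0.26 ± 1.16 in the wild types (SD, n = 5, exact sign-flip p = 0.812) and 0.14 ± 1.01 in the inverted mutants (SD, n = 5, exact sign-flip p = 0.75), where 5 embryos cannot give a p under 0.0625. With so few counts the size of the ratio depends on the prior, and it was -1.88 in the rightward mutants with a prior count of 0.5. *Nodal* did not pass the filter on low counts in the fits of the rightward or of the inverted mutants, and without that filter edgeR's quasi-likelihood test gave a log2 fold change of -1.94 ± 0.47 (SE) in the rightward mutants, with an adjusted p of 0.635 over 42583 genes.

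*Lefty2* (chr1:180720635-180726932), the feedback inhibitor of the left mesoderm, was higher on the left in 4 of 5 wild types and in all 11 rightward mutants, and higher on the right in all 5 inverted mutants. In the wild types 10_1, 17_7, 22_4, 7_1 and 8_1, its level was 0.842, 1.02, 0.893, 0.773 and 2.56 CPM on the left and 0.386, 0.463, 0.893, 0.0821 and 0.376 on the right. The left was higher in 4 of 5 embryos, and both sides were equal in 22_4. In the 11 rightward mutants, levels ranged from 1.14 to 15.6 CPM on the left (median 3.70) and from 0 to 3.11 on the right (median 0.736). The left was higher in all 11, with overlapping ranges. In the inverted mutants 10_3, 18_2, 2_7, 32_2 and 4_6, its level was 0.267, 0.10, 0.20, 0.325 and 0.489 CPM on the left and 1.55, 2.64, 27.9, 2.19 and 3.58 on the right. The right was higher in all 5 inverted mutants and no right sample overlapped a left one.

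**Figure D2:**
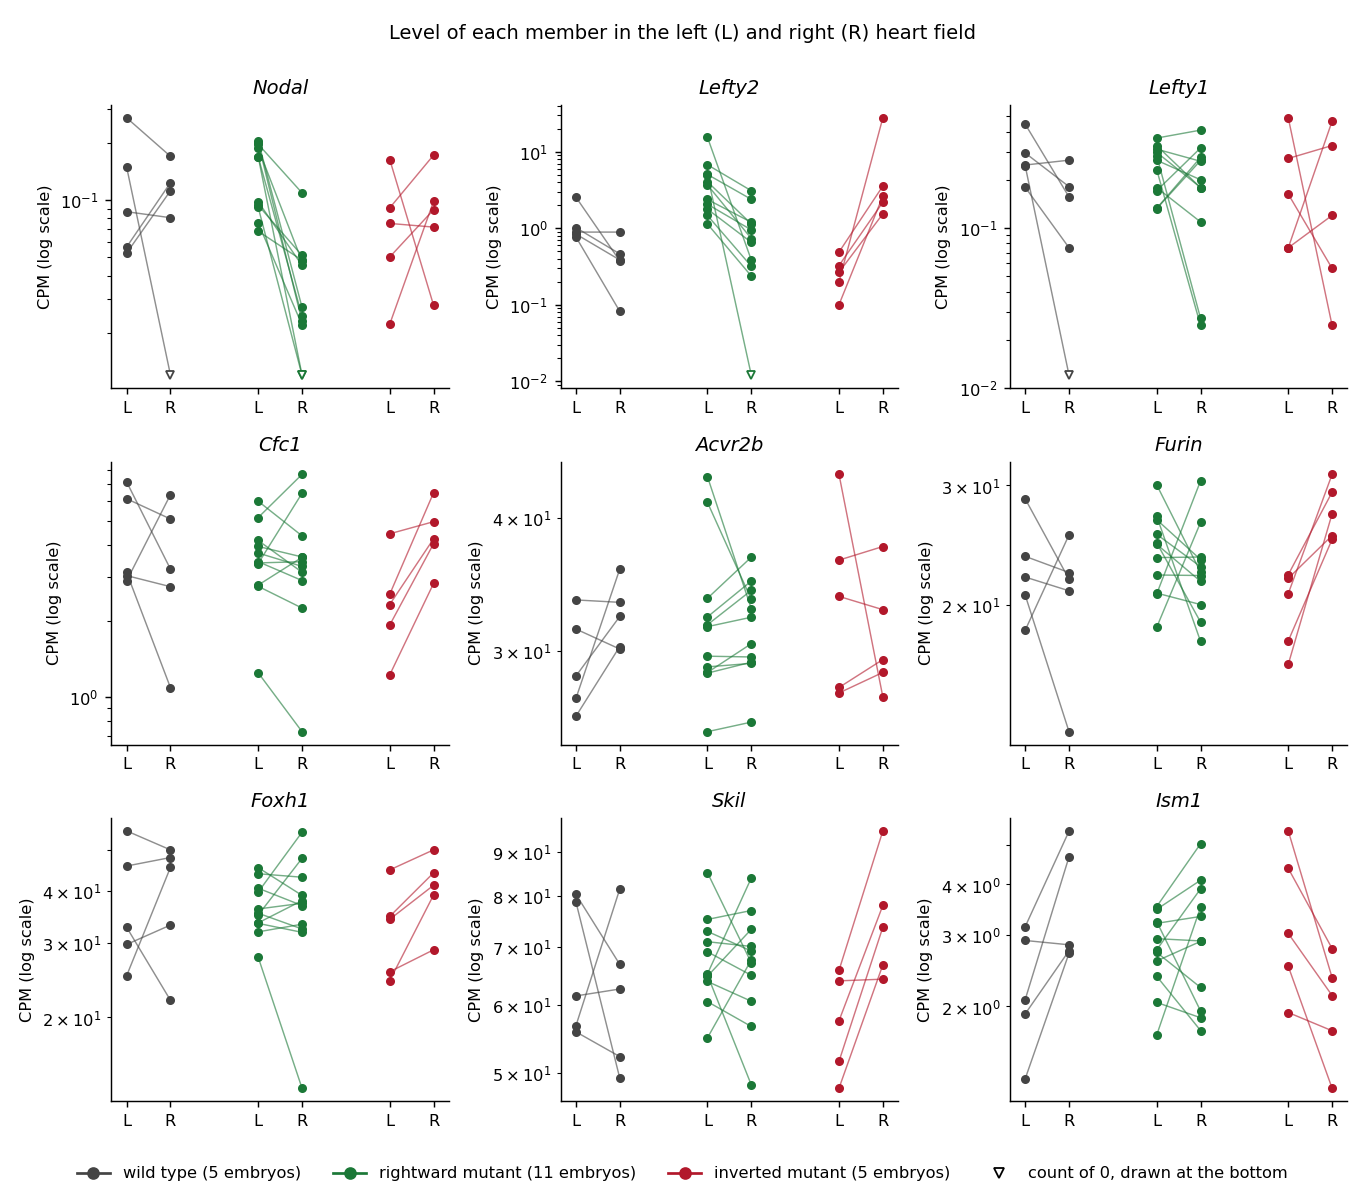
Level of 9 members in the left (L) and right (R) heart field, in CPM on a log scale that differs between panels. Each line joins both samples of an embryo, and open triangles stand for a count of 0. *Lefty2* is lower on the right in all 11 rightward mutants and higher on the right in all 5 inverted mutants, whereas the sides of *Acvr2b* overlap in every group.

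The mean log2 ratio of *Lefty2* was -1.49 ± 1.15 in the wild types (SD, n = 5, exact sign-flip p = 0.125), -2.34 ± 1.90 in the rightward mutants (SD, n = 11, exact sign-flip p = 0.000977) and 3.75 ± 1.87 in the inverted mutants (SD, n = 5, exact sign-flip p = 0.0625, the smallest possible). A few samples carried much of the spread. Embryo 2_7, with 1790 counts, held 81.7% of the counts on the right of inverted mutants, and without it the mean level there was 2.49 ± 0.85 CPM (SD, n = 4) instead of 7.58 ± 11.4 CPM (SD, n = 5). In the rightward mutant 2_2, *Lefty2* had 263 counts on the left and 0 on the right, at least 75.1-fold lower when 3 counts are allowed for the right. The right sample of 2_2 is also the library least like the others, with a summed level of 5 heart muscle genes of 134 CPM against 595 CPM on the left, and the part of its composition in this ratio was not tested. The embryo 15_5 had the highest left level of the rightward mutants, 15.6 CPM. Without 2_2 and 15_5 the mean log2 ratio was -1.53 ± 0.51 (SD, n = 9), with the same sign in every embryo.

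*Lefty1* (chr1:180762587-180765971), the paralog expressed in the midline, was not on the same side in every embryo of any group. It had 8 to 17 counts on the left and 0 to 11 on the right of the wild types, 6 to 16 and 1 to 17 in the rightward mutants, and 3 to 22 and 1 to 21 in the inverted mutants. Its mean log2 ratio was -1.08 ± 1.03 in the wild types, with 4 of 5 embryos higher on the left (SD, n = 5, exact sign-flip p = 0.125), -0.37 ± 1.03 in the rightward mutants, with 7 of 11 (SD, n = 11, exact sign-flip p = 0.272), and -0.24 ± 1.88 in the inverted mutants, with 2 of 5 (SD, n = 5, exact sign-flip p = 0.75). Summed over embryos, 32.3% of its counts in the wild types were from the right (95% Clopper-Pearson interval 23.1 to 42.6%, counting error only), below the 50.4% of the library size. The right share was 44.4% (37.7 to 51.3%) in the rightward mutants and 50% (39.8 to 60.2%) in the inverted mutants, where the library size gave 48.4% and 50.5%. In the inverted mutants, individual embryos ranged from 22 counts on the left against 1 on the right (10_3) to 3 against 21 (32_2). Floor plate and notochord genes, which mark the midline, were summed over *Shh*, *T*, *Foxa2*, *Nog*, *Chrd* and *Noto*. They were higher on the same side as *Lefty1* in 10 of 21 embryos, and *Noto* was at 0 in 17 libraries.

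Right was then compared with left in each group over all genes, by edgeR's quasi-likelihood test with the embryo as a block and Benjamini-Hochberg adjustment. In the wild types, 0 of the 9 members tested and 0 of 23182 genes (0%) had an adjusted p under 0.05, while 639 genes had an unadjusted p under 0.05 and DESeq2 called 20 genes and 0 members. The members with an unadjusted p under 0.05 were *Lefty2*, with a log2 fold change of -1.54 ± 0.46 (SE, unadjusted p = 0.0110), and *Ism1*, with 0.68 ± 0.21 (SE, unadjusted p = 0.0111). The median log2 fold change was -0.15 for the members and 0.00 for all genes.

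In the rightward mutants, 0 of 8 members tested were called, against 6 of 22795 genes (0.0263%), all of them higher on the left. Only *Lefty2* had an unadjusted p under 0.05 by edgeR among the 8 members, with a log2 fold change of -2.12 ± 0.45 (SE, unadjusted p = 0.00033, adjusted p = 0.428). DESeq2 called it, with an adjusted p of 0.0233, as the only member, among 32 genes called (0.14%). It was called by edgeR in none of the 11 fits that left out 1 embryo (adjusted p = 0.211 to 0.999), those without 2_2 (0.211) or 15_5 (0.486) among them. Without both of these embryos, a choice made after seeing the data, edgeR called it, with a log2 fold change of -1.53 and an adjusted p of 0.0090, among 9 of 22764 genes (0.0395%). The other 7 members tested had log2 fold changes between -0.33 (*Lefty1*) and 0.09 (*Ism1*), and the median was -0.04 for the members and 0.00 for all genes.

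In the inverted mutants, 3 of 8 members tested were called, *Lefty2*, *Furin* and *Skil*, all of them higher on the right. Over all genes, 468 of 22960 (2.04%) were called and 395 (1.72%) were higher on the right. The log2 fold change, right over left, was 3.99 ± 0.67 for *Lefty2* (SE, adjusted p = 0.0251), 0.50 ± 0.09 for *Furin* (SE, adjusted p = 0.0324) and 0.40 ± 0.08 for *Skil* (SE, adjusted p = 0.0468). *Cfc1* (0.93, adjusted p = 0.0538), *Foxh1* (0.33, adjusted p = 0.106) and *Ism1* (-0.70, adjusted p = 0.109) did not pass, although *Cfc1* was called without a filter on low counts (adjusted p = 0.0124, with 2.37% of genes called) and at 10 counts or more in every library (adjusted p = 0.0446, with 3.24%). *Acvr2b* (-0.10) and *Lefty1* (-0.16) had an unadjusted p above 0.05. The median log2 fold change was 0.37 for the members and -0.01 for all genes. DESeq2 called 6 of 8 members, *Cfc1*, *Foxh1* and *Ism1* in addition, against 1755 of all genes (7.64%). Each of these 3 calls of edgeR was lost when single embryos were left out, in fits that called 138 to 446 genes (0.599 to 1.94%). *Lefty2* was no longer called without 18_2 (adjusted p = 0.0877), 32_2 (0.0847) or 4_6 (0.0545), *Furin* without 10_3, 18_2, 32_2 or 4_6 (0.0745 to 0.133) and *Skil* without 18_2, 2_7, 32_2 or 4_6 (0.115 to 0.219), whereas *Cfc1* was called without 2_7 (0.0217). Without 2_7 the log2 fold change of *Lefty2* was 3.09. *Skil* was not called without the block (adjusted p = 0.121), and in a fit of all 42 libraries neither *Furin* (0.120) nor *Skil* (0.132) was called.

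*Furin*, the convertase, had 17.7, 20.8, 21.9, 16.3 and 22.1 CPM on the left of inverted mutants 10_3, 18_2, 2_7, 32_2 and 4_6 and 25.0, 31.2, 25.3, 27.2 and 29.3 on the right. Every right sample was above every left one, with a mean log2 ratio of 0.49 ± 0.20 (SD, n = 5, exact sign-flip p = 0.0625). In the rightward mutants, *Furin* ranged from 18.5 to 30.1 CPM on the left (median 24.6) and from 17.6 to 30.5 on the right (median 22.3), and in the wild types from 18.3 to 28.7 (median 22.0) and from 13.0 to 25.4 (median 21.8). Both sides overlapped in these groups, with mean log2 ratios of -0.09 ± 0.36 (SD, n = 11) and -0.15 ± 0.42 (SD, n = 5).

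*Skil*, the co-repressor of SMADs, had 63.9, 65.7, 48.0, 57.5 and 51.6 CPM on the left of the same 5 inverted mutants and 64.2, 95.2, 66.7, 78.1 and 73.7 on the right. The right was higher in all 5, but by only 0.01 on the log2 scale in 10_3, and the ranges overlapped. The mean log2 ratio was 0.39 ± 0.22 (SD, n = 5, exact sign-flip p = 0.0625). It was -0.02 ± 0.24 in the rightward mutants, with 54.9 to 85.2 CPM on the left and 48.4 to 84.0 on the right, and -0.10 ± 0.44 in the wild types, with 55.8 to 80.5 and 49.3 to 81.6 CPM.

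*Cfc1*, the co-receptor that makes cells competent for NODAL, had 1.22, 2.56, 4.44, 1.93 and 2.33 CPM on the left of these inverted mutants and 2.82, 6.47, 4.96, 4.06 and 4.25 on the right. The right was higher in all 5 with overlapping ranges and a mean log2 ratio of 0.91 ± 0.46 (SD, n = 5, exact sign-flip p = 0.0625). In the wild types it ranged from 2.89 to 7.15 CPM on the left and from 1.09 to 6.36 on the right, with 4 of 5 embryos higher on the left. In the rightward mutants it ranged from 1.25 to 5.99 CPM (median 3.44) and from 0.727 to 7.66 CPM (median 3.44), with 7 of 11 higher on the left. *Acvr2b*, the type II receptor, had means of 29.3 ± 3.11 CPM (left) and 32.4 ± 2.36 CPM (right) in wild types (SD, n = 5), 32.3 ± 5.59 and 31.7 ± 3.18 CPM in rightward mutants (SD, n = 11) and 33.9 ± 6.88 and 31.1 ± 4.18 CPM in inverted mutants (SD, n = 5). These differences were within the spread between embryos, with mean log2 ratios of 0.15 ± 0.19, -0.02 ± 0.18 and -0.11 ± 0.33.

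*Foxh1*, the DNA-binding partner of SMAD2/3, had 25.7, 34.7, 44.8, 24.5 and 34.2 CPM on the left of inverted mutants and 29.0, 44.1, 50, 39.1 and 41.2 on the right. All 5 were higher on the right, with a mean log2 ratio of 0.32 ± 0.21 (SD, n = 5, exact sign-flip p = 0.0625) and overlapping ranges. Its ratio was smaller than the spread between embryos in the wild types (0.07 ± 0.52, SD, n = 5) and the rightward mutants (-0.04 ± 0.40, SD, n = 11). The lowest level, 13.6 CPM, was on the right of 2_2.

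*Ism1*, the secreted antagonist of NODAL, went the other way. It had 2.08, 2.91, 1.92, 3.15 and 1.33 CPM on the left of wild types 10_1, 17_7, 22_4, 7_1 and 8_1 and 4.68, 2.84, 2.75, 5.42 and 2.71 on the right, higher on the right in 4 of 5 with a mean log2 ratio of 0.68 ± 0.47 (SD, n = 5, exact sign-flip p = 0.125). In the inverted mutants 10_3, 18_2, 2_7, 32_2 and 4_6 it had 1.93, 4.38, 5.42, 3.03 and 2.51 CPM on the left and 1.74, 2.78, 2.36, 2.13 and 1.26 on the right, higher on the left in all 5 with a mean of -0.69 ± 0.41 (SD, n = 5, exact sign-flip p = 0.0625). The sides overlapped in both groups. Among rightward mutants, 6 of 11 embryos were higher on the right and the mean log2 ratio was 0.08 ± 0.49 (SD, n = 11, exact sign-flip p = 0.591).

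**Figure D3:**
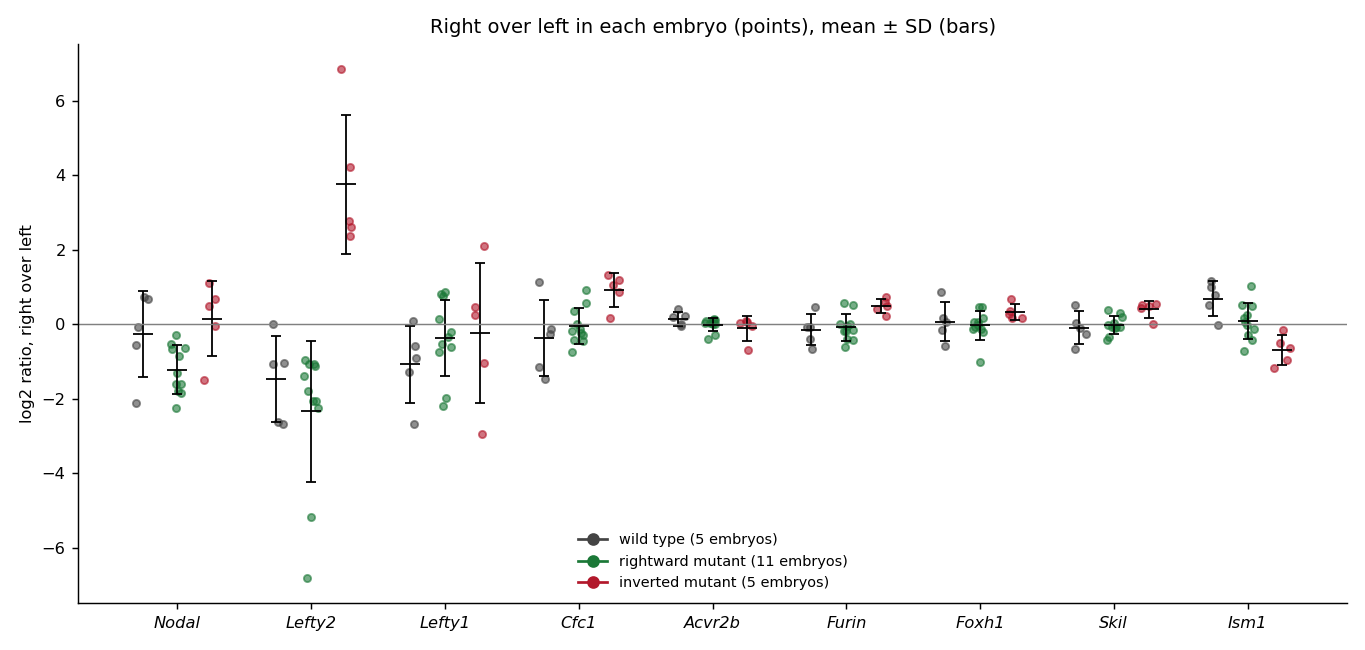
Log2 ratio, right over left, of 9 members in each embryo, computed with a prior count of 2. Points are embryos and bars are the mean ± SD of a group. *Lefty2* has means on opposite sides of 0 in rightward and inverted mutants (-2.34 and 3.75), and *Ism1* has the opposite order, with 0.68 in wild types and -0.69 in inverted mutants.

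Counted by direction alone, 5 of 8 members were higher on the right in every inverted mutant (*Lefty2*, *Cfc1*, *Foxh1*, *Furin* and *Skil*), against 8.02% of all genes tested, and 1 of 8 (*Ism1*) was higher on the left in every one, against 7.51%. For the rightward mutants, 1 of 8 (*Lefty2*) was higher on the left in every embryo, against 0.0965% of genes. In the wild types, 0 of 9 members were on the left in every embryo (2.3% of genes) and 0 of 9 on the right (2.86%).

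The inverted mutants also differed between sides in their composition. The summed level of heart tube muscle genes (*Tnnt2*, *Myl7*, *Myh6*, *Actc1* and *Nppa*) was 980 to 1955 CPM on the left and 1873 to 3863 on the right, higher on the right in 5 of 5. So were 10 genes of the second heart field and cardiac mesoderm (577 to 827 CPM on the left and 787 to 1003 on the right) and 3 endothelial genes. The neural tube list (*Sox1*, *Sox2*, *Pax6* and *Pax3*) was higher on the left in 5 of 5, with 41.0 to 85.6 CPM against 10.1 to 43.5 CPM, and so was the paraxial mesoderm list of 4 genes, with 123 to 198 against 73.5 to 136 CPM. No list was on the same side in every embryo of the wild types or the rightward mutants. The part of this composition in the right-sided *Furin*, *Skil*, *Cfc1* and *Foxh1* and in the left-sided *Ism1* was not tested.

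The difference of asymmetry between groups was tested as the interaction of side and group over all 42 libraries. Between the inverted and the rightward mutants, which share the genotype, 1 of 9 members was called, against 82 of 26335 genes (0.311%), or 18 (0.0672%, without 18_2) to 158 (0.602%, without 19_4) as single embryos were left out. It was *Lefty2*, with a difference of log2 ratios of 6.07 ± 0.91 (SE, adjusted p = 0.00217). The call held without each of the 16 mutants in turn, with a difference of 5.21 (without 2_7) to 6.46, and without 2_2 and 15_5 together the difference was 5.48 (adjusted p = 0.00021, with 109 genes called). The 5 other members that had an unadjusted p under 0.05 in this comparison were *Furin* (0.57), *Ism1* (-0.80), *Cfc1* (0.96), *Skil* (0.42) and *Nodal* (2.22 ± 0.83, SE, unadjusted p = 0.0140, adjusted p = 0.321). The median difference was 0.42 for the members and -0.01 for all genes.

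Between the inverted mutants and the wild types, 2 of 9 members were called, against 135 genes (0.513%). The difference was 5.45 ± 1.06 for *Lefty2* (SE, adjusted p = 0.0182) and -1.40 ± 0.29 for *Ism1* (SE, adjusted p = 0.0296). For either gene, the log2 ratios of the embryos did not overlap between both groups. The calls depended on single embryos, since *Lefty2* was lost without 18_2 (adjusted p = 0.0636), 32_2 (0.0508) or 8_1 (0.0601), was 4.61 without 2_7, and *Ism1* was lost without 10_1, 18_2, 2_7, 32_2, 4_6, 7_1 or 8_1 (0.0508 to 0.111). Without the wild type 22_4, in which *Lefty2* was equal on both sides, 5 members were called, *Cfc1* (0.0130), *Furin* (0.0367) and *Skil* (0.0286) in addition, while the calls over all genes rose to 641 of 26800 (2.39%). In the fits without each other embryo they ranged from 17 (0.0635%, without 32_2) to 260 (0.972%, without 2_7), with 25 without 18_2, 39 without 10_1 and 62 without 8_1. *Ism1* was not called without the block (adjusted p = 0.225).

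Between the rightward mutants and the wild types, 0 of 9 members and 0 genes (0%) were called by edgeR, where 800 genes and 1 member, *Ism1* (-0.60 ± 0.25, SE, unadjusted p = 0.0240), had an unadjusted p under 0.05, and DESeq2 called 0 genes. *Nodal* had a difference of -1.66 ± 0.80 (SE, unadjusted p = 0.051) and *Lefty2* of -0.61 ± 0.86, which was -0.02 ± 0.79 without 2_2 and 15_5. The 3 differences share their libraries pairwise and are not independent of each other.

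Single members were also compared by exact permutation of the group labels over embryos, two-sided, on the log2 ratios. Inverted and rightward mutants differed by 6.10 for *Lefty2* (p = 0.000458, the smallest possible, with no overlap of the groups), 1.36 for *Nodal* (exact permutation p = 0.00962), 0.97 for *Cfc1* (p = 0.00504), 0.57 for *Furin* (p = 0.00595), 0.42 for *Skil* (p = 0.00641), -0.77 for *Ism1* (p = 0.00824) and 0.36 for *Foxh1* (p = 0.0467). For *Lefty1* (0.13, exact permutation p = 0.867) and *Acvr2b* (-0.09, p = 0.451) the difference was within the spread between embryos. Inverted mutants and wild types differed by 5.24 for *Lefty2* and by -1.37 for *Ism1*, both at the smallest possible exact permutation p of 0.00794, and by 0.64 for *Furin* (p = 0.0238) and 1.30 for *Cfc1* (p = 0.0317). The other 5 members had an exact permutation p of 0.0794 to 0.563 in this comparison. Rightward mutants and wild types differed by -0.60 for *Ism1* (exact permutation p = 0.0403), -0.96 for *Nodal* (p = 0.0586) and -0.86 for *Lefty2* (p = 0.416). With the sign-flip tests, 54 tests were made on 9 members and 14 had a p under 0.05, with no adjustment.

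Levels were next compared on each side, with sex in the model. On the left, 1 of 9 members differed between inverted and rightward mutants, against 3 of 24838 genes (0.0121%). It was *Lefty2*, with a log2 fold change of -4.00 ± 0.65 in inverted mutants (SE, adjusted p = 0.0305), from a mean of 4.46 ± 4.09 CPM (SD, n = 11) to 0.276 ± 0.145 CPM (SD, n = 5). Its highest left sample in the inverted mutants, 0.489 CPM, was under the lowest of the rightward mutants, 1.14 CPM. The call was lost without 10_3, 18_2, 19_6, 23_3, 2_7, 32_2 or 4_6 (adjusted p = 0.0518 to 0.151), with log2 fold changes of -4.35 to -3.48 (without 15_5) over all embryos left out. Without 2_2 and 15_5 together it was -3.27 (adjusted p = 0.0035, with 4 genes called). *Furin* (-0.27) and *Skil* (-0.24) had an unadjusted p under 0.05 and were not called.

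On the right, 0 of 8 members differed between inverted and rightward mutants by edgeR, against 2 of 24859 genes (0.00805%). *Lefty2* had a log2 fold change of 2.87 ± 0.54 (SE, adjusted p = 0.125) and was called by DESeq2 (adjusted p = 0.0159, among 18 genes or 0.0724%). Nor did edgeR call it when single embryos were left out, with a log2 fold change of 2.02 without 2_7 and of up to 3.16 without the others, nor without 2_2 and 15_5 together (2.72, adjusted p = 0.130). *Furin* (0.29) and *Ism1* (-0.56) had an unadjusted p under 0.05 by edgeR. Right levels of *Lefty2* overlapped between both groups.

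Between rightward mutants and wild types, 0 of 9 members were called on the left, against 6 genes (0.0242%), and 0 of 8 on the right, against 3 genes (0.0121%). DESeq2 called 0 members on either side. By edgeR, 1 of 9 members had an unadjusted p under 0.05 on the left, *Lefty2*, with a log2 fold change of 1.87 ± 0.54 (SE, unadjusted p = 0.00245, adjusted p = 0.816), and 0 of 8 on the right. Left levels of *Lefty2* were 0.773 to 2.56 CPM in the wild types and 1.14 to 15.6 CPM in the rightward mutants, so that the groups overlapped, and without 2_2 and 15_5 the log2 fold change was 1.09 (not called). *Nodal* had means of 0.123 and 0.141 CPM on the left of the wild types and the rightward mutants, and of 0.0969 and 0.0361 CPM on the right. On the right it did not pass the filter on low counts. Without that filter, edgeR gave a log2 fold change of -1.54 ± 0.61 there (SE, unadjusted p = 0.0180, adjusted p = 0.910).

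Opposite sides were compared last, first the right of inverted with the left of rightward mutants. Since the rightward mutants may hold different organ arrangements, this sets the inverted mutants against a mixed group and not against a mirror image. In that comparison 0 of 9 members and 0 of 24832 genes (0%) were called by edgeR, 0 members and 1131 genes had an unadjusted p under 0.05, and DESeq2 called 0 members and 1 gene. *Lefty2* differed by 0.46 ± 0.62 (SE), and this value ranged from -0.81 to 0.92 as single embryos were left out and was 1.14 without 2_2 and 15_5 (unadjusted p = 0.0164, adjusted p = 0.999). *Nodal* differed by -0.57 ± 0.37 (SE) and *Ism1* by -0.43 ± 0.21 (SE). Between the left of inverted and the right of rightward mutants, 0 of 8 members and 0 of 24869 genes (0%) were called by edgeR, where 1483 genes and 1 member had an unadjusted p under 0.05, and DESeq2 called 0 members and 6 genes. The member was *Lefty2*, lower by a log2 fold change of -1.42 ± 0.67 in the inverted mutants (SE, unadjusted p = 0.0463, adjusted p = 0.827), or by -1.74 without 2_2 and 15_5 (unadjusted p = 0.00627, adjusted p = 0.716). All of these comparisons use the same rightward and inverted libraries as the ones before, and a p above the threshold does not show that the sides were alike.

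**Figure D4:**
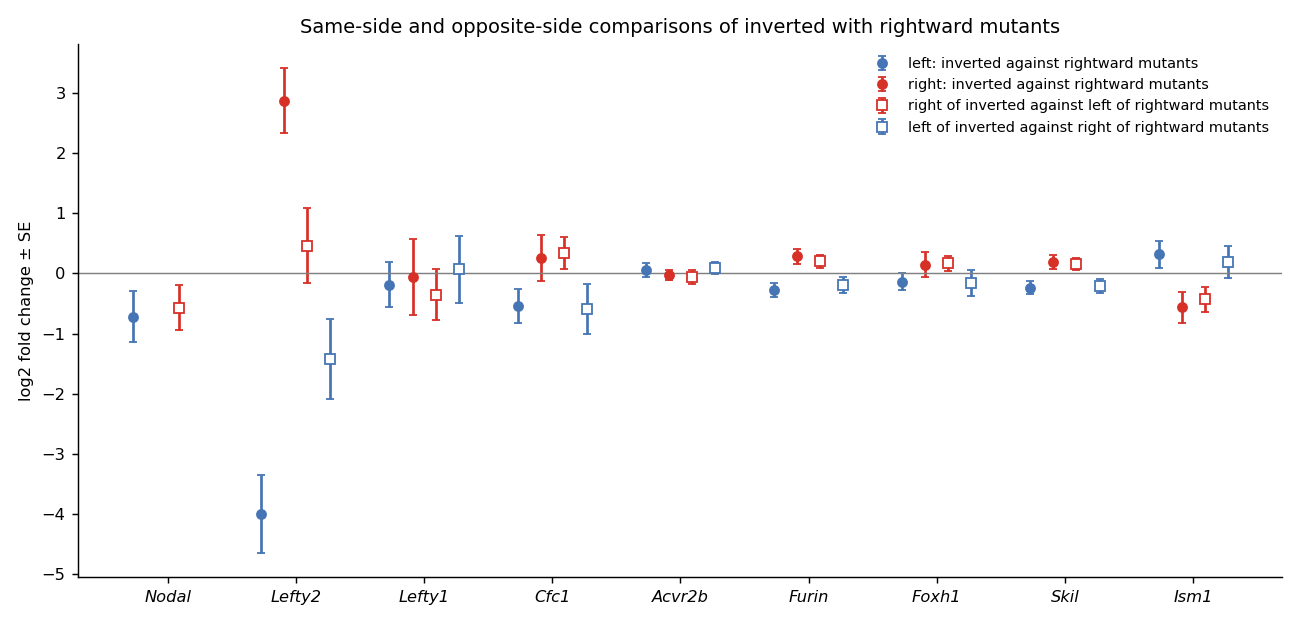
Log2 fold change ± SE of 9 members between inverted and rightward mutants, on the same side (filled circles) and between opposite sides (open squares). On the same side *Lefty2* is at -4.00 on the left and 2.87 on the right, and between opposite sides it is at 0.46 and -1.42.

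Other genes of the pathway were counted from a list of 31 receptors, SMADs, convertases, inhibitors, corepressors and targets. By edgeR, 0 of 30 tested were called between sides in the wild types and 0 of 29 in the rightward mutants, with 1 and 2 at an unadjusted p under 0.05. Over all genes, 639 of 23182 and 818 of 22795 had such a p. In the inverted mutants 1 of 30 was called, against 468 of 22960 genes (2.04%). It was the inhibitory SMAD *Smad7*, which was higher on the right (0.47 ± 0.09, SE, adjusted p = 0.0387). *Smad7* was higher on the right in 5 of 5 inverted mutants, with 8.89 to 10.3 CPM on the left and 10.9 to 15.1 on the right, but was not called when any of the 5 was left out (adjusted p = 0.0563 to 0.161). The median log2 fold change of the list in the inverted mutants was -0.01, against 0.37 for the members. In the difference of asymmetry, 0 of 30 were called between inverted and rightward mutants, between inverted mutants and wild types, or between rightward mutants and wild types. Of these, 5, 5 and 0 had an unadjusted p under 0.05, against 2768, 3569 and 800 of all 26335 genes. For levels of inverted against rightward mutants, 0 of 30 were called on either side, with 2 on the left and 1 on the right at an unadjusted p under 0.05. Over all genes, 1960 of 24838 on the left and 1060 of 24859 on the right had such a p. *Dand5*, the NODAL inhibitor of the node crown, was between 1.12 and 3.08 CPM in all libraries. It had mean log2 ratios of 0.13 ± 0.24 (SD, n = 5), 0.03 ± 0.19 (SD, n = 11) and 0.28 ± 0.41 (SD, n = 5) in wild types, rightward and inverted mutants. The samples were of the heart field, so that these ratios do not measure the asymmetry of the node crown.

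Among 15245 genes with a mean of at least 1 CPM, those whose log2 ratios were most like *Lefty2* by Pearson correlation over the 21 embryos were *Sema3a* (r = 0.869), *Wnt11* (0.848) and *Kcnq3* (0.826). Of the members, *Skil* was closest (0.669, rank 93), *Cfc1* (0.506), *Furin* (0.502) and *Foxh1* (0.476) came after it, and *Ism1* was opposite (-0.554). *Nodal* (0.350) and *Lefty1* (0.069), at few counts, were weakly alike. The points share their libraries and fall into groups, and within groups r between *Skil* and *Lefty2* was 0.451 in 5 wild types, 0.602 in 11 rightward mutants and 0.411 in 5 inverted mutants. In wild types, rightward and inverted mutants in turn, r was 0.549, 0.143 and -0.767 for *Cfc1*, 0.457, 0.008 and -0.699 for *Furin*, 0.485, 0.494 and -0.408 for *Foxh1*, and -0.382, 0.033 and -0.727 for *Ism1*. In the rightward mutants, the value of *Furin* moved most when 2_2 and 15_5 were left out. Without these embryos, r was 0.712 for *Skil*, -0.028 for *Cfc1*, 0.490 for *Furin*, 0.439 for *Foxh1* and -0.206 for *Ism1* (9 embryos). Over all embryos without them, it was 0.647, 0.560, 0.635, 0.423 and -0.738 for these genes (19 embryos).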

How the data were processed

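Total RNA of paired left and right heart fields was sequenced from poly-A libraries of a low-input kit that does not mark strand. According to the submitters' processing notes, the reads were aligned to GRCm39 with STAR and counted with featureCounts of Subread 2.0.6. The deposited values are raw counts per Ensembl gene, made by the authors without normalization or a filter, and the counting options for strand and for shared reads are not given in the sources used here. Each of the 42 columns was matched to a sample by its library name and 0 were left unused.

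Counts were filtered by filterByExpr with the limits of the study (a minimum count of 5, a minimum of 10 over all libraries, a large group of 50 and a proportion of 0.2), normalized by TMM and tested with edgeR 4.0.16 (glmQLFit and glmQLFTest) in R 4.3.3 with limma 3.58.1, over all genes that passed, at an adjusted p under 0.05. Right was compared with left with the embryo as a block, since both samples come from 1 embryo by the labels. Deviations of both libraries of an embryo correlated with a median of 0.371 (-0.114 to 0.803, 21 embryos, 2000 genes). Levels within a side carried sex as a covariate. CPM used the TMM effective library size, log2 ratios a prior count of 2, and a count of 0 was read as up to 3 counts. At 36073684 to 62970327 counts per library, 3 counts were 0.0468 to 0.0838 CPM, which limits *Nodal* and *Lefty1* most. Alternatives were DESeq2 1.42.0, library size alone, no filter, at least 10 counts in every library, no block, all libraries in 1 fit, no sex covariate, a prior count of 0.5 and each embryo left out in turn. All members are named, and other pathway genes where their adjusted p was under 0.05, with *Dand5* in any case and the genes most like *Lefty2*. Of that list, and of the genes like *Lefty2*, a few are not reported here, and counts over the list leave them out. The members and lists were chosen with earlier results of these data known. The study's transcriptomic clusters are not in the labels and were made from these counts, so they were not used.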

Additional observations from a re-analysis of the deposited data

Results flagged for a closer look

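Within the 5 wild types and the 5 inverted mutants, 54 sets of values were searched for a single sample far from the others. Chance finds about 1 in 20. The 11 rightward mutants were not searched in this way. In all, 4 were found. *Lefty2* had 2.56 CPM on the left of the wild type 8_1, where the other 4 wild types lay between 0.773 and 1.02 CPM. It had 27.9 CPM on the right of the inverted mutant 2_7, where the others lay between 1.55 and 3.58 CPM. The log2 ratio of *Skil* was 0.0064 in the inverted mutant 10_3 and 0.44 to 0.54 in the others. That of *Acvr2b* was -0.70 in the inverted mutant 18_2 and -0.04 to 0.09 in the others.

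Asymmetry differed between groups by a test of the difference itself for *Lefty2*, by 6.07 between inverted and rightward mutants and by 5.45 between inverted mutants and wild types, and for *Ism1* by -1.40 between inverted mutants and wild types, all on the log2 scale.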

How the results depend on the processing

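The count of members called depended most on the tool and on single embryos. DESeq2 called 1 member instead of 0 in the rightward mutants (*Lefty2*), with 0.14% of all genes called instead of 0.0263%. In the inverted mutants it called 6 instead of 3 (7.64% of genes instead of 2.04%). For the difference between inverted and rightward mutants it called 2 instead of 1 (1.73% instead of 0.311%). For that between inverted mutants and wild types it called 5 instead of 2 (3.46% instead of 0.513%). For the level on the right of inverted and rightward mutants it called 1 instead of 0 (0.0724% instead of 0.00805%). With at least 10 counts in every library, *Lefty2* was not tested in these comparisons, and 0 members were called for the difference between inverted and rightward mutants (0.405% of genes), 1 for that between inverted mutants and wild types (1.22%) and 0 for the level on the left (0.0119%), whereas 3 of 6 were called in the inverted mutants (3.24%), *Cfc1*, *Furin* and *Skil*. Without a filter 4 were called there (2.37%), *Cfc1* in addition. A fit of all 42 libraries called 1 member in the inverted mutants (0.535% of genes). Without the embryo block, which follows the pairing in the labels, 1 member was called for the difference between inverted mutants and wild types (0.0266% of genes). *Skil* was then lost in the inverted mutants (adjusted p = 0.121, with 1.33% of genes called). With library size alone *Skil* was lost as well (adjusted p = 0.0546, with 1.93% of genes called). Without embryos 2_2 and 15_5, a choice made after seeing the data, 1 member was called in the rightward mutants (0.0395% of genes). Leaving out each embryo gave 0 to 3 members in the inverted mutants (0.599 to 1.94% of genes), 0 to 5 for the difference from the wild types (0.0635 to 2.39%) and 0 to 1 for the level on the left (0.0079 to 0.0243%). No member changed direction past the threshold under these alternatives, and the causes were not tested.

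Counts over all genes moved further. In the inverted mutants they were 468, against 1755 with DESeq2, 942 without a filter, 305 without the block and 141 in a fit of all libraries. For the difference between inverted and rightward mutants they were 82, against 456, 131 and 17 for the first 3 of these, and for that between inverted mutants and wild types 135, against 911, 207 and 7. In the rightward mutants DESeq2 called 32 genes instead of 6, and the fit without the block 1. For levels on the left, DESeq2 called 104 genes instead of 3 between inverted and rightward mutants and 20 instead of 6 between rightward mutants and wild types, and on the right 18 instead of 2 and 6 instead of 3. In the wild types, 20 genes were called by DESeq2, 2 without a filter and 1 in a fit of all libraries instead of 0, and between opposite sides 1 and 6 by DESeq2 instead of 0. The level on the right of inverted and rightward mutants gave 4 genes at 10 counts or more and 0 without sex, and rightward mutants against wild types gave 11 genes on the left and 8 on the right without a filter and 3 on the left at 10 counts or more. Depth limits *Nodal* and *Lefty1*, which had at most 12 and 22 counts in a library.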

Other observations

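In the rightward mutants, the level of *Lefty2* on the right separated by sex, a pattern noticed after the values were seen and given as a description. The 5 females had 0.954 to 3.11 CPM (median 1.20) and the 6 males 0 to 0.736 CPM (median 0.352), with no overlap. The other groups did not separate in this way, as the 1 wild type female had 0.376 CPM and the 4 males 0.0821 to 0.893 CPM, and the 2 inverted females had 2.19 and 27.9 CPM and the 3 males 1.55 to 3.58 CPM. On the left of the rightward mutants, females had 2.07 to 6.79 CPM and males 1.14 to 15.6 CPM, which overlapped. Over 21991 autosomal genes in these right libraries, every female was above every male for 84 genes, or 0.382%, and every male above every female for 46. *Nodal* on the right overlapped between the sexes, with 0 to 0.109 CPM in females and 0 to 0.0481 CPM in males.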
